A study of Mus musculus with 16 samples.

Results

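The Slc25 family is the group of mitochondrial carriers, small membrane proteins that move metabolites, nucleotides, cofactors and ions between the cytosol and the mitochondrial matrix. The genes described here are those whose official mouse symbol consists of Slc25a followed by a number. They made up 47 of the 46078 gene identifiers in the deposited count table, and all 47 are annotated as protein-coding. Relatives with other names, such as the uncoupling protein Ucp1, were left out by this rule and are described near the end.

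Most carriers sit in the inner mitochondrial membrane and exchange one compound for another. Adenine nucleotide carriers bring ADP in for ATP synthesis, the citrate carrier exports the carbon that cytosolic fat synthesis uses, and the carnitine/acylcarnitine carrier imports fatty acids for oxidation. Brown adipose tissue (BAT) is the mitochondria-rich fat that burns fuel to make heat, whereas white adipose tissue (WAT) mainly stores fat, and inguinal WAT is the depot under the skin near the groin.

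Poly(A)-selected RNA was sequenced from both fats of wild-type C57BL/6 females. Breeding and weaning took place at 30 °C, which is close to thermoneutral for a mouse, and tissue was taken at 16 weeks of age, 2 to 3 h after food was withdrawn. The cold groups, BAT_5C and WAT_5C, left 30 °C when 10 to 12 weeks old, spent 2 weeks at 18 °C and then lived at 5 °C, for 3 weeks. The control groups, BAT_30C and WAT_30C, stayed at 30 °C. Each group held 4 libraries, no group carried a mutation or a drug, and the labels do not state that libraries came from separate mice, so a p-value here reflects only library-to-library spread, which may be technical.

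Libraries held 54264023 to 71289020 counts. In 4 of the 8 BAT libraries the source name gave the other temperature (BAT_5C replicates 1 and 2, BAT_30C replicates 3 and 4), and one label field calls the brown fat inguinal. Groups followed the sample titles and housing temperatures. The 11 brown adipocyte markers reached 17683 to 19308 CPM (read counts scaled to a common library size) in BAT_5C, 2966 to 5023 CPM in BAT_30C, 95.0 to 774 CPM in WAT_5C and 33.3 to 53.5 CPM in WAT_30C, so the tissue labels and the titles sorted the libraries without overlap. The white fat markers Hoxc10 and Tcf21 had no count in any BAT library, although the 10 white markers together summed to 80.9 to 183 CPM in BAT_5C, 853 to 1264 CPM in BAT_30C, 681 to 1715 CPM in WAT_5C and 773 to 1392 CPM in WAT_30C. WAT_5C replicate 1 stood apart, with a correlation of log CPM of 0.908 to 0.936 with the other WAT_5C libraries, which reached 0.984 to 0.989 among themselves. In that library general adipocyte markers summed to 23612 CPM against 5887 to 8862 CPM in the other WAT_5C libraries, skeletal muscle markers to 7487 CPM against 22.8 to 274 CPM, mammary epithelium markers to 82.7 CPM against 1532 to 1606 CPM, and T and NK cell markers to 144 CPM against 536 to 651 CPM. Carrier counts and carrier fold changes that use it are therefore given with and without it. In bulk tissue, fewer cells of a type and less RNA per cell cannot be told apart.

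Carrier RNA was most abundant in cold brown fat. The 47 genes summed to 9213 ± 334 CPM in BAT_5C and 5383 ± 305 CPM in BAT_30C, and to 3656 ± 1311 CPM in WAT_5C and 1966 ± 146 CPM in WAT_30C (SD, n = 4 each). As a plain share of all counts they held 0.58 to 0.619% in BAT_5C and 0.422 to 0.47% in BAT_30C. In white fat that share was 0.352 to 0.515% in WAT_5C, overlapping BAT_30C, and 0.289 to 0.317% in WAT_30C. The distances between groups therefore depend on the scaling. WAT_5C replicate 1 alone held 5499 CPM and the other WAT_5C libraries 2433, 3157 and 3535 CPM, all above the 1841 to 2164 CPM of WAT_30C. Between 38 and 40 carriers reached 1 CPM in a library. Of those below, Slc25a31, a testis ADP/ATP carrier, Slc25a41 and Slc25a54 had too few counts for any test.

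Within a group, levels were compared per kilobase of merged exon. In BAT_5C the citrate carrier Slc25a1 led with 718 CPM per kb, followed by the ADP/ATP carrier Slc25a5 with 455, the glutathione carrier Slc25a39 with 268, the ADP/ATP carrier Slc25a4 with 217 and the carnitine/acylcarnitine carrier Slc25a20 with 178 CPM per kb. The ranges of neighbours in this order did not overlap down to the NAD carrier Slc25a51 in 6th place, with 146 CPM per kb. In BAT_30C Slc25a5 led with 325 CPM per kb and Slc25a4 was second with 207, without overlap. The coenzyme A carrier Slc25a42 had 115 CPM per kb, overlapping Slc25a11, and Slc25a1 was 7th with 91.3. WAT_5C also had Slc25a1 first, with 452 CPM per kb, but each of its 12 highest carriers overlapped the next one in range. WAT_30C had Slc25a5 first with 115 CPM per kb and Slc25a1 second with 92.9, and these 2 overlapped.

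**Figure D1:**
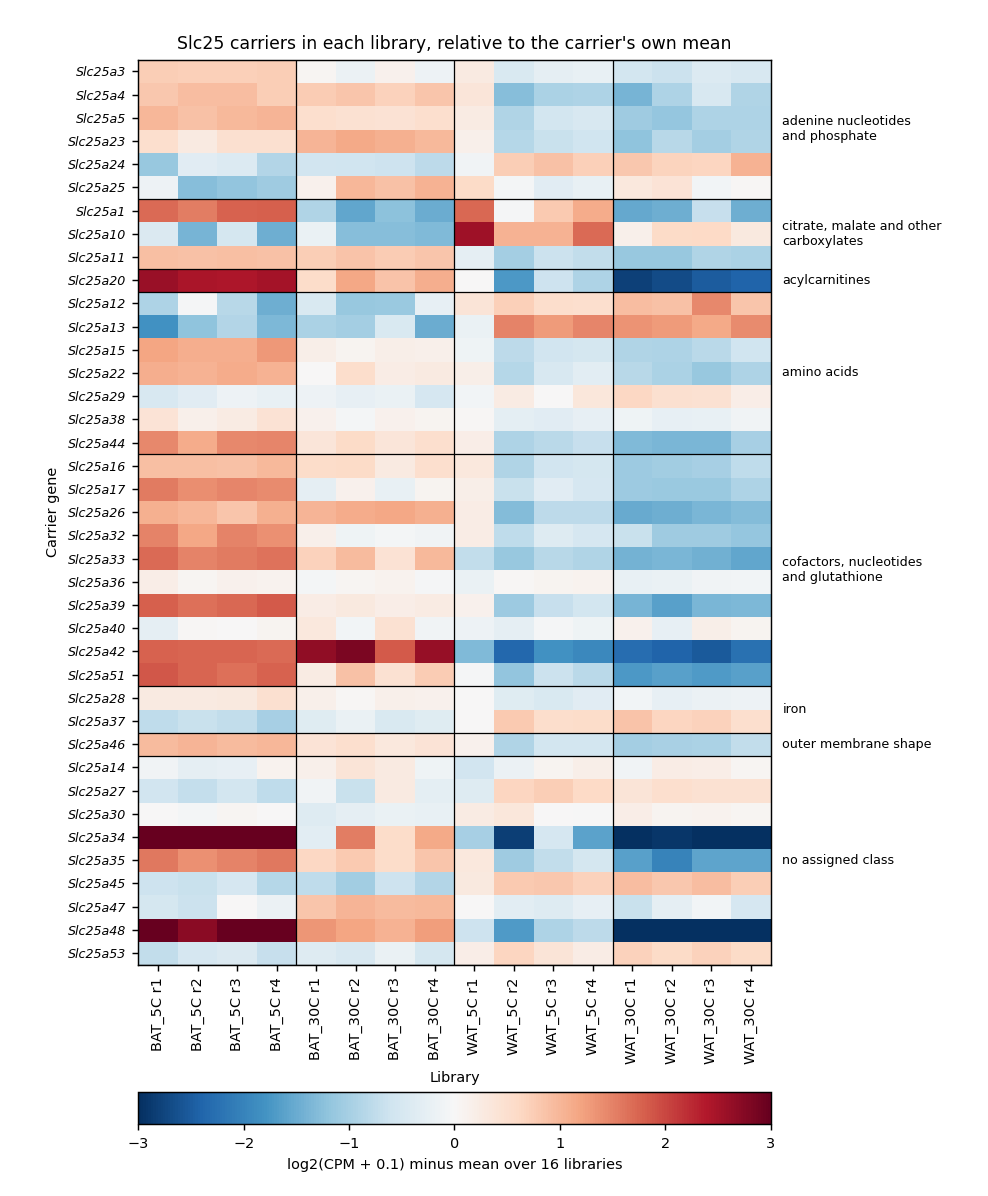
Rows are the carriers reported by name with at least 1 CPM on average in some group, ordered by role, and columns are the 16 libraries. Colour is log2(CPM + 0.1) minus the carrier's own mean over the 16 libraries, clipped at 3 in both directions. Slc25a34, Slc25a48 and Slc25a20 are reddest in the 4 BAT_5C libraries, Slc25a42 in BAT_30C and Slc25a10 in WAT_5C replicate 1.

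Promoter windows of RefSeq (GRCm38.p6, 250 bases before to 50 after a start site) were available for 36 of the 47 carriers, 46 windows in all. Those of the 4 carriers below are shown because Slc25a34 and Slc25a1 had the largest rises in cold brown fat, Slc25a25 the largest fall, and Slc25a20 carries the fuel of oxidation. The window of Slc25a48, whose rise was larger than that of Slc25a20, held none of the motifs searched. Capitals mark the single motif found in each window. It is an E-box (CACGTG) in Slc25a1 (chr16:17928170-17928469, minus strand), a nuclear receptor element (AAGGTCA, on the opposite strand) in Slc25a34 (chr4:141623785-141624084, minus strand), an ETS site (CCGGAAG) in Slc25a20 (chr9:108661886-108662185, plus strand) and a cyclic AMP response element (TGACGTCA) in Slc25a25 (chr2:32424017-32424316, minus strand). Slc25a25 has other windows farther upstream, one with an ETS site and one without a motif.
Slc25a1: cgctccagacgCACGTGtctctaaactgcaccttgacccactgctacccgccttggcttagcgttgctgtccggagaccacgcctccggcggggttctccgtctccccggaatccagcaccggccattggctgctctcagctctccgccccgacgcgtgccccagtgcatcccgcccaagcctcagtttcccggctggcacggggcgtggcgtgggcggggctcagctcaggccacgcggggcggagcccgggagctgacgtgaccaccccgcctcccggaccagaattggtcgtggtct
Slc25a34: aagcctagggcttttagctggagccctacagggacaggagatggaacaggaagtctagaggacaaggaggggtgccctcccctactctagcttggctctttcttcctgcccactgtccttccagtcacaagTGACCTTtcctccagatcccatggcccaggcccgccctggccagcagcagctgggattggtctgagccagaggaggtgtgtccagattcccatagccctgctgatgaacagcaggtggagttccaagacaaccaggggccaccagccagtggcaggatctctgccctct
Slc25a20: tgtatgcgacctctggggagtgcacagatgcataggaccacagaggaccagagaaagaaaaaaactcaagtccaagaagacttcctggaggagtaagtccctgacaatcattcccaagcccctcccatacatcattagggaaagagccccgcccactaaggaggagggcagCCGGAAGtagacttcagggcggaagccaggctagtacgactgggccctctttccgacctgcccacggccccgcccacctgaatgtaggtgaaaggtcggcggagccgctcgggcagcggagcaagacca
Slc25a25: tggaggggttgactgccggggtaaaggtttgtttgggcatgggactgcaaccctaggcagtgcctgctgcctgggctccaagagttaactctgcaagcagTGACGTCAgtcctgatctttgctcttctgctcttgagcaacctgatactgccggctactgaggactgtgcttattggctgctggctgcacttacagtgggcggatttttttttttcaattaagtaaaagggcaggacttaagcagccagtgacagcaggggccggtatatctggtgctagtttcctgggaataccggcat
The motifs start at positions -239 (Slc25a1), -119 (Slc25a34), -79 (Slc25a20) and -150 (Slc25a25) relative to the start site. Searched on both strands, the E-box was in 17.4% of the carriers' windows and 7.15% of all 32851 windows, and the ETS site in 15.2% of the carriers' and 8.86% of all windows. The nuclear receptor element was in 2.17% of the carriers' and 4.72% of all windows, the cyclic AMP element in 4.35% and 1.79%, the NRF1 site in 4.35% and 4.6%, and the sterol response element (TCACNCCAC) in 2.17% and 1.24%. No motif overlapped another in the windows shown, and a match of letters is not a measured site.

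Cold change in brown fat was tested with the edgeR quasi-likelihood test on the 8 BAT libraries, adjusted by Benjamini-Hochberg over 16213 genes at a threshold of 0.05. Of 41 carriers tested, 20 were higher in BAT_5C, 5 were lower and 16 did not pass. Among all genes tested, 29.2% were higher and 30.3% lower. The median log2 fold change of the carriers was 0.17 and that of all genes -0.05. With library totals in place of TMM scaling (a normalization that discounts the share taken by a few abundant genes), the median of all genes became -0.43 and the carriers split into 15 higher and 15 lower, where 14.3% of all genes were higher and 54.5% lower, so each direction here is relative to the typical gene. With the 4 BAT libraries whose labels all match, 17 carriers were higher and 5 lower, where 20.3% of all genes were higher and 16.4% lower. Other cell markers also differed. All 6 white fat markers tested, 9 of 12 T and NK cell markers, and 1 of 10 mammary epithelium markers were lower in BAT_5C. No marker of these lists passed as higher, although the mammary markers had a median log2 fold change of 1.65. Brown adipocyte markers were higher in 6 of 11 cases and lower in 2 (Ebf2 and Lhx8), general adipocyte markers higher in 4 of 8 and lower in 1 (Adipoq), endothelial markers higher in 4 of 10 and lower in 5, and fibroblast and preadipocyte markers higher in 1 of 10 and lower in 5. The part of these cells in the carrier values was not tested. No macrophage marker (of 10) or skeletal muscle marker (of 12) passed in either direction by edgeR.

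The citrate carrier showed one of the largest rises. Slc25a1 (chr16:17925223-17928219, minus strand) counted 1542, 1377, 1632 and 1662 CPM in BAT_5C, against 256, 161, 203 and 170 CPM in BAT_30C. The lowest cold library was above the highest warm one by a wide margin, and the log2 fold change was 2.98 ± 0.15 (SE, adjusted p = 3.4e-07), a 7.88-fold difference. Acly, the enzyme that cleaves exported citrate for fat synthesis, averaged 11380 ± 1320 CPM in BAT_5C and 649 ± 110 CPM in BAT_30C, and rose by 4.13 on the log2 scale, while the malic enzyme Me1 rose by 3.69. The other carboxylate carriers did not pass. Slc25a11, which exchanges oxoglutarate for malate, counted 235, 231, 235 and 229 CPM in BAT_5C, against 208, 227, 213 and 222 CPM in BAT_30C. Those ranges were narrow and just separate, with a log2 change of 0.10 ± 0.05 (SE, adjusted p = 0.123), which became -0.28 (adjusted p = 0.00033) with library totals. Slc25a10, the dicarboxylate carrier, counted 72.5, 37.2, 67.9 and 35.8 CPM in BAT_5C, against 85.9, 40.6, 40.8 and 39.1 CPM in BAT_30C. Replicate 1 of BAT_30C was the highest of the 8, the groups overlapped, and its log2 fold change of 0.05 ± 0.32 (SE, adjusted p = 0.909) turned to -0.35 with library totals.

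The acylcarnitine carrier rose. Slc25a20 (chr9:108662088-108684641, plus strand) counted 924, 837, 830 and 865 CPM in BAT_5C, against 225, 344, 280 and 329 CPM in BAT_30C. The groups were far apart, and the log2 fold change was 1.56 ± 0.13 (SE, adjusted p = 5.32e-06), a 2.94-fold difference. About 6.2% of its annotated 50-base stretches also occur in other annotated transcripts, so reads from those could be counted with it. On the inner side of the membrane Cpt2, which turns imported acylcarnitines back into acyl-CoA, averaged 1198 ± 54.4 CPM in BAT_5C and 300 ± 37.5 CPM in BAT_30C, a rise of 2.00 on the log2 scale.

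The adenine nucleotide and phosphate carriers split. Slc25a3, which carries phosphate and copper, counted 671, 660, 661 and 672 CPM in BAT_5C, against 418, 357, 436 and 361 CPM in BAT_30C. The cold libraries lay within a few percent of each other and above every warm one, with a log2 change of 0.76 ± 0.07 (SE, adjusted p = 1.93e-05). Slc25a5 counted 762, 707, 746 and 777 CPM in BAT_5C, against 546, 528, 520 and 544 CPM in BAT_30C. It too rose without overlap, by 0.49 ± 0.06 (SE, adjusted p = 5.18e-05) on the log2 scale, although 33.76% of its 50-base stretches also lie in pseudogenes such as Gm5560, so its count is uncertain. Slc25a4, the ADP/ATP carrier typical of heart and muscle, counted 496, 535, 535 and 474 CPM in BAT_5C, against 480, 501, 459 and 506 CPM in BAT_30C. These groups overlapped and the change of 0.07 ± 0.06 (SE, adjusted p = 0.332) did not pass, and it became -0.31 (adjusted p = 0.00195) with library totals.

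The calcium-regulated ATP-Mg/phosphate carriers went down or did not pass. Slc25a25 (chr2:32414487-32451445, minus strand), known for a role in muscle energy use, counted 19.8, 9.02, 9.66 and 10.4 CPM in BAT_5C, against 23.9, 44.1, 40.1 and 45.2 CPM in BAT_30C. Replicate 1 was the highest cold and the lowest warm library, the groups stayed apart, and the log2 fold change was -1.65 ± 0.28 (SE, adjusted p = 0.000764), 3.13-fold lower. Slc25a23 counted 185, 159, 183 and 183 CPM in BAT_5C, against 264, 286, 273 and 258 CPM in BAT_30C. All 4 cold libraries were below all 4 warm ones, with a log2 change of -0.61 ± 0.07 (SE, adjusted p = 4.63e-05). Both genes overlap a gene on the opposite strand (Naif1 and Gm17168), and the strand setting of the counting is not given, so reads of the partners cannot be told apart. Slc25a24 counted 5.80, 10.2, 9.73 and 6.97 CPM in BAT_5C, against 8.60, 8.47, 8.36 and 7.52 CPM in BAT_30C. These groups overlapped and did not pass.

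Of the cofactor, nucleotide and glutathione carriers, 6 of 11 rose and 1 fell (5 and 5 with library totals). Among all genes 29.2% rose and 30.3% fell, and with library totals 14.3% and 54.5%. Slc25a39 (chr11:102402985-102407946, minus strand), needed for glutathione import, counted 764, 694, 720 and 782 CPM in BAT_5C, against 255, 267, 252 and 260 CPM in BAT_30C. Its log2 fold change was 1.52 ± 0.06 (SE, adjusted p = 1.1e-07), the smallest adjusted p among the carriers in this comparison. Slc25a51, the NAD carrier, counted 860, 797, 750 and 813 CPM in BAT_5C, against 283, 435, 328 and 401 CPM in BAT_30C. It rose by 1.16 ± 0.13 (SE, adjusted p = 4.09e-05), with the lowest cold library well above the highest warm one. Slc25a17, a carrier of peroxisomes, counted 237, 210, 221 and 214 CPM in BAT_5C, against 66.5, 87.5, 68.0 and 84.6 CPM in BAT_30C, a log2 change of 1.53 ± 0.10 (SE, adjusted p = 1.58e-06). The folate and FAD carrier Slc25a32 rose by 1.41 ± 0.09 (SE, adjusted p = 1.48e-06) and the coenzyme A related Slc25a16 by 0.44 ± 0.07 (SE, adjusted p = 0.00058). The pyrimidine nucleotide carrier Slc25a33 counted 37.0, 32.2, 34.1 and 35.7 CPM in BAT_5C, against 18.4, 22.2, 15.5 and 22.5 CPM in BAT_30C. Its cold libraries were all above its warm ones, with a log2 change of 0.83 ± 0.12 (SE, adjusted p = 0.000236). Slc25a33 shares 12.62% of its stretches with the antisense gene Gm13068.

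Slc25a42 (chr8:70184340-70212305, minus strand), which brings coenzyme A into the matrix, was the cofactor carrier that fell. It counted 404, 402, 397 and 384 CPM in BAT_5C, against 748, 849, 425 and 726 CPM in BAT_30C. The cold libraries were tightly grouped below the warm ones, of which replicate 3 came close, and the log2 fold change was -0.79 ± 0.17 (SE, adjusted p = 0.00333). Slc25a26, the S-adenosylmethionine carrier, counted 40.4, 38.6, 34.6 and 40.4 CPM in BAT_5C, against 39.6, 42.0, 43.1 and 40.5 CPM in BAT_30C. Slc25a36 averaged 94.7 ± 4.01 CPM in BAT_5C and 88.0 ± 4.48 CPM in BAT_30C (SD, n = 4 each) and Slc25a40 12.6 ± 1.31 CPM in BAT_5C and 14.4 ± 2.87 CPM in BAT_30C (SD, n = 4 each). None of these 3 passed.

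Of 8 amino acid carriers tested in BAT, 4 rose and none fell by the edgeR test (3 and 1 with library totals). Among all genes 29.2% rose and 30.3% fell, and with library totals 14.3% and 54.5%. Slc25a44 (chr3:88410498-88425139, minus strand), which imports branched-chain amino acids as a fuel of brown fat, counted 293, 233, 292 and 295 CPM in BAT_5C, against 138, 159, 138 and 153 CPM in BAT_30C. BAT_5C replicate 2 was the lowest cold library and still above all warm ones, and the log2 fold change was 0.92 ± 0.09 (SE, adjusted p = 2.08e-05). Slc25a15, the ornithine carrier, rose by 1.03 ± 0.07 (SE, adjusted p = 1.6e-06). Slc25a22, a glutamate carrier, counted 228, 219, 229 and 221 CPM in BAT_5C, against 108, 153, 124 and 128 CPM in BAT_30C. It rose without overlap, by 0.81 ± 0.09 (SE, adjusted p = 5.98e-05). The glycine carrier Slc25a38 had a smaller change of 0.25 ± 0.08 (SE, adjusted p = 0.0285), which became -0.13 with library totals and did not pass without BAT_5C replicate 1 or 4 (adjusted p up to 0.0779). The aspartate/glutamate carriers overlapped between groups. Slc25a12 counted 8.54, 15.8, 9.12 and 5.81 CPM in BAT_5C, against 11.9, 7.32, 7.41 and 13.7 CPM in BAT_30C, and Slc25a13 counted 0.311, 0.525, 0.683 and 0.470 CPM in BAT_5C, against 0.646, 0.610, 0.951 and 0.413 CPM in BAT_30C. Skeletal muscle markers, which differed between libraries, summed to 54.5 to 2674 CPM in BAT_5C and 59.0 to 1749 CPM in BAT_30C. Slc25a12, a gene active in muscle, was highest in BAT_5C replicate 2, which also had the most muscle marker RNA, and the part of muscle RNA in its values was not tested.

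The iron carriers moved in opposite directions. Slc25a37 (mitoferrin 1) counted 24.8, 26.3, 24.9 and 21.1 CPM in BAT_5C, against 32.8, 36.5, 30.4 and 32.8 CPM in BAT_30C. It was lower in each cold library than in any warm one, with a log2 change of -0.45 ± 0.08 (SE, adjusted p = 0.000965). Slc25a28 (mitoferrin 2) counted 39.2, 39.2, 39.7 and 44.8 CPM in BAT_5C, against 35.9, 32.9, 35.7 and 35.1 CPM in BAT_30C. Its rise of 0.22 ± 0.07 (SE, adjusted p = 0.0149) became -0.16 with library totals and did not pass there.

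Carriers without an assigned class included the largest rise of all. Slc25a34 (chr4:141618824-141623821, minus strand), whose substrate is not settled, counted 162, 143, 141 and 119 CPM in BAT_5C, against 5.81, 21.4, 10.8 and 16.0 CPM in BAT_30C. Warm libraries varied several-fold but stayed far below the cold ones, with a log2 change of 3.39 ± 0.34 (SE, adjusted p = 2.24e-05), a 10.5-fold difference. Slc25a48 (chr13:56438355-56474239, plus strand), which has been linked to choline import, counted 76.5, 54.1, 80.8 and 79.9 CPM in BAT_5C, against 20.7, 18.9, 17.0 and 19.8 CPM in BAT_30C. It rose without overlap by 1.93 ± 0.13 (SE, adjusted p = 1.88e-06). Slc25a35, a relative of Slc25a34, rose by 0.81 ± 0.08 (SE, adjusted p = 2.91e-05), but 25.05% of its stretches are shared, mostly with Rangrf on the opposite strand. Slc25a30 rose by 0.28 ± 0.09 (SE, adjusted p = 0.026), which became -0.10 with library totals and did not pass without BAT_5C replicate 3 or 4 (adjusted p up to 0.0582). Slc25a47, best known from liver, fell at low levels, with a log2 change of -1.30 ± 0.18 (SE, adjusted p = 0.000165), averaging 1.92 ± 0.427 CPM in BAT_5C and 4.76 ± 0.246 CPM in BAT_30C (SD, n = 4 each). Slc25a46, an outer membrane protein that shapes mitochondria, rose by 0.58 ± 0.06 (SE, adjusted p = 1.56e-05).

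**Figure D2:**
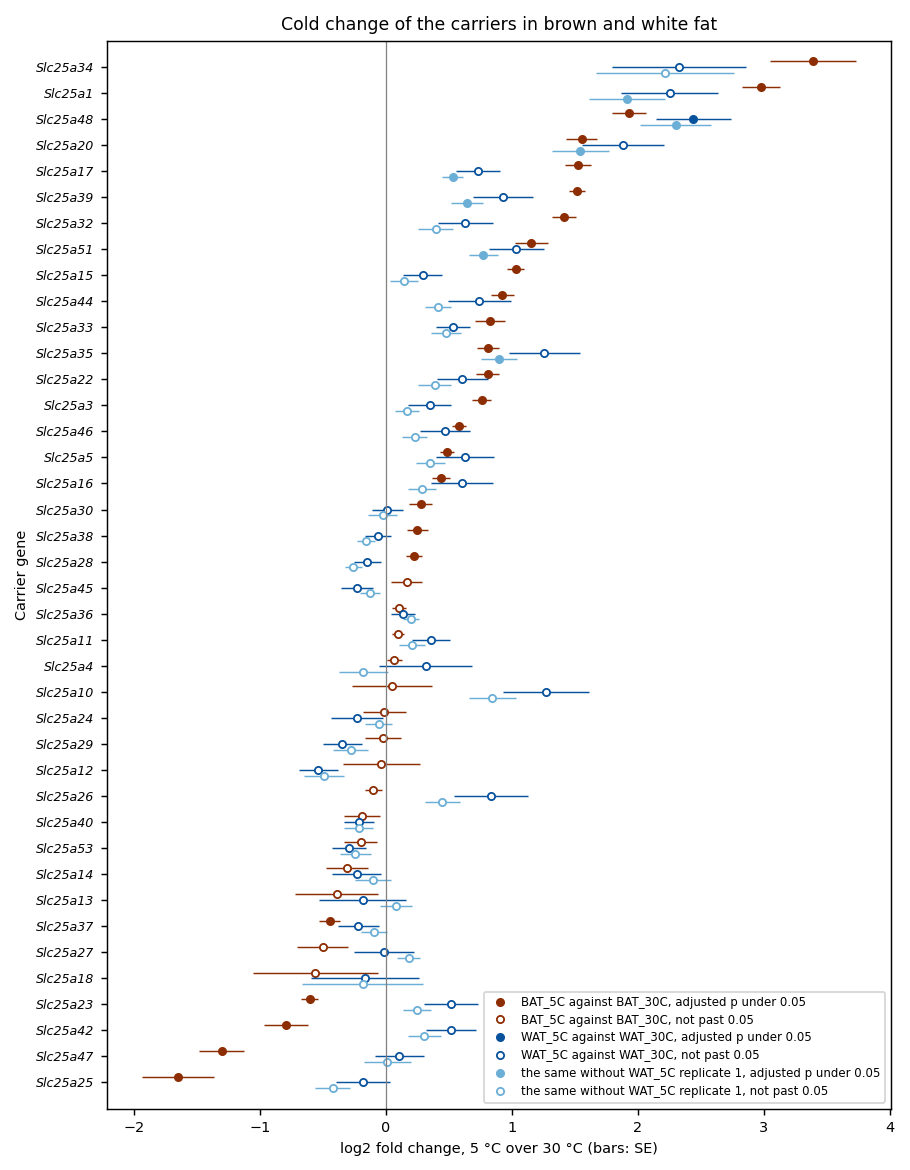
Each row is a carrier, and the horizontal axis is the log2 fold change of 5 °C over 30 °C with its SE. Brown points are BAT, dark blue points WAT and light blue points WAT without WAT_5C replicate 1, and filled points have an adjusted p under 0.05. BAT points are mostly filled, from 3.39 for Slc25a34 to -1.65 for Slc25a25, while in WAT Slc25a48 is the filled one with all libraries and 7 carriers are filled without replicate 1.

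In inguinal white fat 1 of 43 carriers passed in the same test and none was lower, with 18975 genes tested. Among all genes 0.0632% were higher and 0% lower. At an unadjusted p under 0.05, 22 carriers were higher and 1 lower, where 11.3% of all genes were higher and 6.78% lower. DESeq2 called 11 higher and 0 lower (4.44% and 1.45% of all genes), and limma-voom with quality weights 18 higher and 2 lower (7.34% and 4.62% of all genes). The carriers' median log2 fold change was 0.36 and that of all genes -0.01, and without WAT_5C replicate 1 they were 0.21 and -0.02. Without WAT_5C replicate 1 the edgeR test called 7 carriers higher and none lower, where 1.84% of all genes were higher and 0.274% lower, and at an unadjusted p under 0.05 there were 19 higher and 3 lower, where 12.2% of all genes were higher and 11% lower. Brown adipocyte markers moved with these counts. With all libraries 1 of 10 tested was higher and none lower, and without replicate 1 it was 5 of 10, with a median log2 fold change of 2.39. Without replicate 1, 1 of 14 mammary markers was also higher, and 1 of 8 white fat and 1 of 12 T and NK cell markers were lower. The part of these cells in the carrier values was not tested.

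The carrier that passed was Slc25a48, which counted 5.36, 2.49, 4.31 and 4.73 CPM in WAT_5C, against 0.635, 0.944, 0.893 and 0.561 CPM in WAT_30C. All cold libraries exceeded all warm ones, with a log2 change of 2.44 ± 0.30 (SE, adjusted p = 0.0465), and 2.30 ± 0.28 (SE, adjusted p = 0.0151) without WAT_5C replicate 1. Leaving out WAT_5C replicate 3 or 4 or any WAT_30C library took the adjusted p above the threshold, to at most 0.256. The test then called 0 carriers, and without WAT_5C replicate 2 it called 5, all higher, where 1.37% of all genes were higher and 0.0414% lower.

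The citrate carrier had a similar shape but a wider spread. Slc25a1 counted 1586, 464, 824 and 1042 CPM in WAT_5C, against 164, 174, 294 and 172 CPM in WAT_30C. Replicate 1 was the highest and replicate 2 the lowest cold library, yet the groups did not overlap. The log2 fold change was 2.25 ± 0.39 (SE, adjusted p = 0.0874), and 1.92 ± 0.30 (SE, adjusted p = 0.0265) without replicate 1. Its partner Acly averaged 4052 ± 1825 CPM in WAT_5C and 607 ± 184 CPM in WAT_30C (adjusted p = 0.0691, and 0.0158 without replicate 1). Slc25a20 counted 155, 46.5, 101 and 80.7 CPM in WAT_5C, against 21.9, 23.9, 27.0 and 28.8 CPM in WAT_30C. These groups were also separate, at 1.89 ± 0.32 (SE, adjusted p = 0.0882) with all libraries and 1.54 ± 0.23 (SE, adjusted p = 0.0222) without replicate 1.

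Slc25a51 counted 233, 105, 151 and 137 CPM in WAT_5C, against 71.9, 77.3, 73.5 and 76.6 CPM in WAT_30C. The warm libraries were nearly equal and the cold ones all higher, with a log2 change of 1.04 ± 0.22 (SE, adjusted p = 0.126), and 0.77 ± 0.12 (SE, adjusted p = 0.0229) without replicate 1. Slc25a39 counted 241, 103, 136 and 150 CPM in WAT_5C, against 83.0, 70.5, 84.6 and 85.5 CPM in WAT_30C. It had 0.93 ± 0.24 (SE, adjusted p = 0.169) with all libraries and 0.65 ± 0.13 (SE, adjusted p = 0.0488) without replicate 1. The remaining carriers that passed without replicate 1 were Slc25a35 at 0.90 ± 0.14 (SE, adjusted p = 0.0265) and Slc25a17 at 0.53 ± 0.09 (SE, adjusted p = 0.03). With all libraries these 2 had 1.26 and 0.73, and Slc25a17 counted 89.7, 50.4, 62.8 and 56.6 CPM in WAT_5C, against 37.3, 36.6, 37.1 and 42.2 CPM in WAT_30C. Each of these 7 was also called higher in BAT_5C against BAT_30C, where 29.2% of all genes tested were higher. The same overlap was not counted over all genes, so it cannot be read as particular to carriers.

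Other carriers did not pass in WAT. Slc25a34 counted 3.60, 0.936, 5.12 and 2.31 CPM in WAT_5C, against 0.548, 0.871, 0.592 and 0.310 CPM in WAT_30C, a separation at low level whose log2 fold change of 2.33 ± 0.53 (SE, adjusted p = 0.137) did not pass, nor did 2.22 ± 0.55 (SE, adjusted p = 0.0768) without replicate 1. Slc25a10 counted 571, 202, 203 and 320 CPM in WAT_5C, against 109, 146, 149 and 121 CPM in WAT_30C. WAT_5C replicate 1 held by far the most, and the log2 fold change was 1.28 ± 0.34 (SE, adjusted p = 0.178) with it and 0.85 ± 0.19 (SE, adjusted p = 0.064) without it. Slc25a4 counted 364, 118, 147 and 150 CPM in WAT_5C, against 108, 149, 203 and 152 CPM in WAT_30C. Its highest libraries in each group, WAT_5C replicate 1 and WAT_30C replicate 3, were those with the most skeletal muscle marker RNA in their groups (7487 and 10992 CPM summed), and the part of muscle RNA was not tested. Its log2 fold change was 0.32 ± 0.37 (SE, adjusted p = 0.639), and -0.18 ± 0.20 (SE, adjusted p = 0.615) without replicate 1.

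Slc25a44 counted 123, 56.4, 60.9 and 66.1 CPM in WAT_5C, against 42.7, 41.5, 41.5 and 53.8 CPM in WAT_30C. The cold libraries were higher, but the change of 0.74 ± 0.25 (SE, adjusted p = 0.223) did not pass, and it was 0.41 ± 0.10 (SE, adjusted p = 0.0803) without replicate 1. The phosphate carrier Slc25a3 counted 486, 290, 332 and 346 CPM in WAT_5C, against 274, 255, 302 and 289 CPM in WAT_30C. The ADP/ATP carrier Slc25a5 counted 451, 206, 262 and 275 CPM in WAT_5C, against 184, 170, 201 and 202 CPM in WAT_30C. Replicate 1 was the highest cold library of both, with log2 fold changes of 0.35 and 0.63, and 0.17 and 0.35 without it. The oxoglutarate carrier Slc25a11 counted 104, 62.0, 79.7 and 75.1 CPM in WAT_5C, against 56.5, 56.6, 66.7 and 64.7 CPM in WAT_30C. The glutamate carrier Slc25a22 counted 120, 58.3, 76.4 and 85.8 CPM in WAT_5C, against 60.2, 55.1, 48.1 and 55.6 CPM in WAT_30C. Their changes were 0.36 and 0.61, and 0.21 and 0.39 without replicate 1.

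In the mitoferrins, Slc25a28 counted 32.3, 25.2, 23.4 and 25.5 CPM in WAT_5C, against 30.4, 27.3, 28.4 and 29.1 CPM in WAT_30C, and Slc25a37 counted 42.3, 72.1, 60.3 and 61.4 CPM in WAT_5C, against 75.4, 65.7, 68.3 and 59.4 CPM in WAT_30C. Both overlapped between the temperatures, with log2 fold changes of -0.15 and -0.22, and -0.26 and -0.09 without replicate 1. The aspartate/glutamate carrier Slc25a12 counted 21.1, 26.9, 23.4 and 23.1 CPM in WAT_5C, against 31.0, 30.1, 44.4 and 29.0 CPM in WAT_30C. Its relative Slc25a13 counted 1.17, 3.95, 3.41 and 3.92 CPM in WAT_5C, against 3.59, 3.42, 3.11 and 3.77 CPM in WAT_30C. Their changes were -0.54 and -0.18, and -0.49 and 0.08 without replicate 1, which was the lowest library of WAT_5C for both. Slc25a33 counted 6.76, 5.11, 6.39 and 6.09 CPM in WAT_5C, against 4.19, 4.32, 4.11 and 3.83 CPM in WAT_30C, a log2 change of 0.53 ± 0.13 (SE, adjusted p = 0.157), and 0.48 without replicate 1. Slc25a25 and Slc25a42, whose values are given with the comparison of the fats, had -0.18 and 0.52, and -0.42 and 0.31 without it. None of these passed with or without replicate 1.

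The share of counts from the mitochondrial genome was 4.04 to 9.59% in WAT_5C and 3.19 to 4.18% in WAT_30C, and 17.6 to 19.4% in BAT_5C and 24.2 to 26.8% in BAT_30C. Among WAT libraries it was highest in WAT_5C replicate 1, as the summed carriers were, and its part in the carrier values was not tested.

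**Figure D3:**
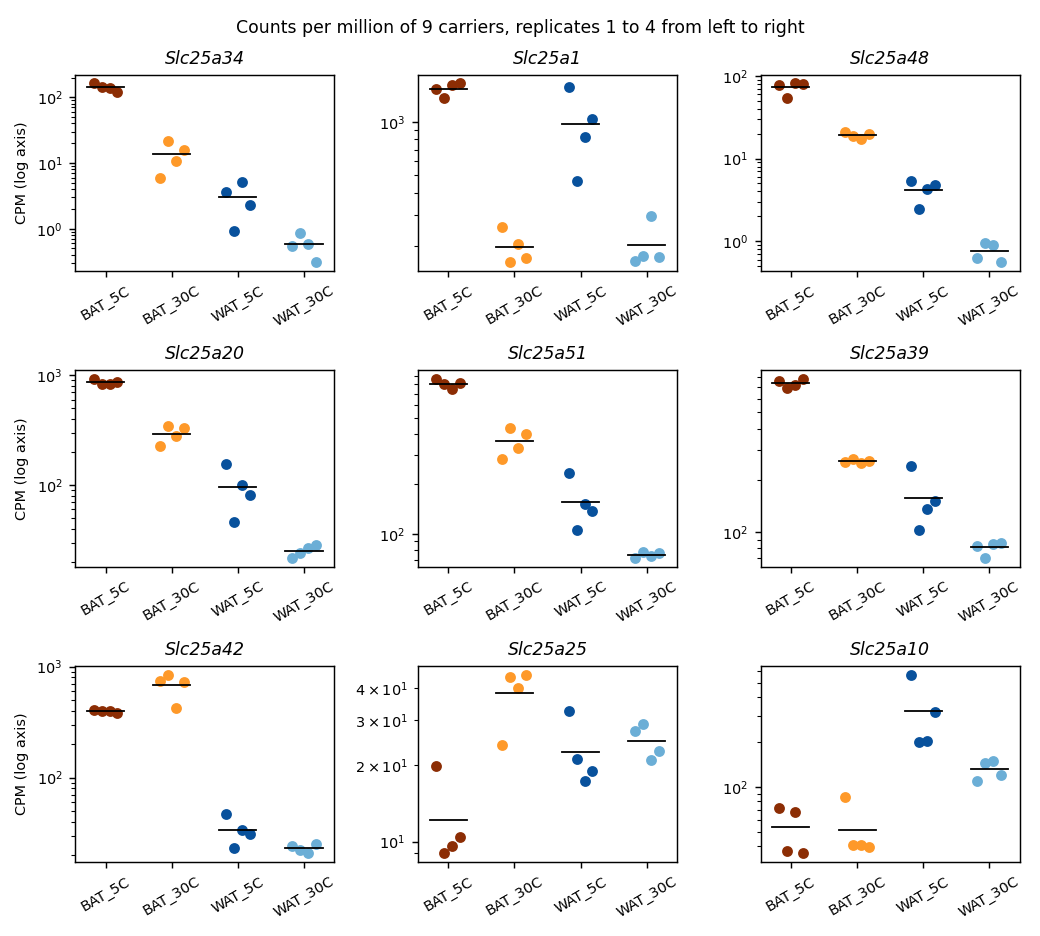
Each panel is one carrier, with CPM on a log axis for the 4 libraries of each group and a line at the group mean. Slc25a34, Slc25a1, Slc25a48, Slc25a20, Slc25a51 and Slc25a39 are higher in every BAT_5C library than in any BAT_30C library, Slc25a42 and Slc25a25 are lower, and Slc25a10 overlaps in BAT and peaks at 571 CPM in WAT_5C replicate 1.

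The cold changes of the tissues were set against each other in one edgeR fit of all 16 libraries and 19481 genes. The BAT change exceeded the WAT change for 3 of 44 carriers and was below it for 5, where 8.34% and 12.5% of all genes did so. Without WAT_5C replicate 1 the counts were 10 and 6, where 15.7% and 15.6% of all genes did so. With the BAT libraries whose labels all match they were 0 and 2, where 3.99% and 4.31% of all genes did so.

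The ornithine carrier Slc25a15, which counted 42.5, 40.2, 40.1 and 46.1 CPM in BAT_5C, against 21.0, 19.7, 21.2 and 21.0 CPM in BAT_30C, had 17.2, 10.8, 12.4 and 13.0 CPM in WAT_5C, against 9.94, 9.79, 10.6 and 12.4 CPM in WAT_30C. The brown fat groups were separate and the white fat groups overlapped, and the difference of the 2 changes was 0.71 ± 0.17 (SE, adjusted p = 0.00821) on the log2 scale, and 0.90 without WAT_5C replicate 1. For Slc25a17 the difference was 0.76 ± 0.21 (SE, adjusted p = 0.0181) and for Slc25a32 0.75 ± 0.24 (SE, adjusted p = 0.0385), and without that library they were 1.01 and 1.03. Slc25a32 counted 67.4, 54.0, 68.0 and 62.1 CPM in BAT_5C, against 26.8, 22.2, 23.1 and 22.4 CPM in BAT_30C, and 27.9, 14.3, 18.4 and 16.8 CPM in WAT_5C, against 15.1, 11.5, 11.5 and 10.8 CPM in WAT_30C. Its difference passed without WAT_5C replicate 1 and without 4 others (BAT_5C replicate 2, BAT_30C replicate 1, WAT_30C replicates 2 and 4), but not without any one of the remaining 11 libraries (adjusted p up to 0.0838).

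Among the carriers with a lower change in BAT, Slc25a25 had a difference of -1.50 ± 0.38 (SE, adjusted p = 0.0117), and -1.22 without WAT_5C replicate 1. Its white fat libraries counted 32.5, 21.0, 17.3 and 18.9 CPM in WAT_5C, against 27.2, 28.9, 20.9 and 22.6 CPM in WAT_30C, an overlap, beside the fall in brown fat described above. Slc25a42 differed by -1.34 ± 0.29 (SE, adjusted p = 0.00448), with 47.3, 23.1, 33.6 and 31.3 CPM in WAT_5C, against 24.4, 22.3, 20.8 and 25.0 CPM in WAT_30C. Slc25a23 differed by -1.16 ± 0.24 (SE, adjusted p = 0.00337), with 146, 72.1, 83.0 and 87.2 CPM in WAT_5C, against 56.6, 73.8, 65.1 and 69.8 CPM in WAT_30C. Slc25a47 differed by -1.44 ± 0.26 (SE, adjusted p = 0.00141) and Slc25a26 by -0.97 ± 0.31 (SE, adjusted p = 0.0384). Without replicate 1 these 4 were -1.09, -0.85, -1.31 and -0.54, all still past the threshold. Slc25a26 counted 22.4, 7.85, 11.3 and 11.2 CPM in WAT_5C, against 6.67, 7.0, 7.38 and 7.86 CPM in WAT_30C and lost its call without any one of the 8 BAT libraries or WAT_30C replicates 1 to 3 (adjusted p up to 0.0743). For Slc25a1 the difference was 0.69 ± 0.42 (SE, adjusted p = 0.263) with all libraries, and 1.07 ± 0.34 (SE, adjusted p = 0.0282) without WAT_5C replicate 1. Slc25a20, by contrast, had a difference of -0.36 ± 0.36 (SE, adjusted p = 0.521), and 0.02 ± 0.27 (SE, adjusted p = 0.977) without that library.

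Carrier levels differed between brown and white fat at both temperatures. At 5 °C, 24 of 44 carriers were higher in BAT_5C than in WAT_5C, 12 were lower and 8 did not pass, where 31.8% of all genes were higher and 40.5% lower. At 30 °C, 26 were higher in BAT_30C than in WAT_30C, 12 were lower and 6 did not pass, where 34.5% were higher and 35.3% lower. The carriers' median log2 fold change was 0.87 at 5 °C and 0.95 at 30 °C, against -0.19 and -0.03 for all genes. Library totals moved the medians of all genes to -1.12 and -0.88, and the carriers then split into 20 higher and 19 lower at 5 °C and 19 higher and 19 lower at 30 °C. Among all genes 10.9% were then higher and 71.3% lower at 5 °C, and 12.9% and 66.1% at 30 °C. Without WAT_5C replicate 1 the 5 °C counts were 25 and 12, where 34% of all genes were higher and 42.2% lower.

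The largest differences in favour of brown fat were those of Slc25a34, Slc25a48, Slc25a42 and Slc25a20. In the cold, Slc25a42 counted 404, 402, 397 and 384 CPM in BAT_5C, against 47.3, 23.1, 33.6 and 31.3 CPM in WAT_5C, and at 30 °C 748, 849, 425 and 726 CPM in BAT_30C, against 24.4, 22.3, 20.8 and 25.0 CPM in WAT_30C. No white fat library came near a brown fat one, with log2 fold changes of 3.55 ± 0.23 (SE, adjusted p = 1.14e-08) at 5 °C and 4.89 ± 0.24 (SE, adjusted p = 2.34e-09) at 30 °C. Slc25a34 differed by 5.57 ± 0.51 (SE, adjusted p = 2.26e-07) at 5 °C and 4.53 ± 0.51 (SE, adjusted p = 1.86e-06) at 30 °C, and Slc25a48 by 4.11 ± 0.23 (SE, adjusted p = 5.31e-09) and 4.65 ± 0.24 (SE, adjusted p = 4e-09). Slc25a20 differed by 3.17 and 3.54. At 5 °C without WAT_5C replicate 1, Slc25a42 had 3.74, Slc25a34 5.65, Slc25a48 4.23 and Slc25a20 3.49.

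Of the cofactor carriers, 9 of 11 were higher and none lower in BAT at either temperature by the edgeR test, beside the shares of all genes given above, and Slc25a36 and Slc25a40 did not pass. Without WAT_5C replicate 1 the 5 °C counts were the same, and with library totals they were 9 and 2 at 5 °C and 7 and 2 at 30 °C. Of the adenine nucleotide and phosphate carriers, Slc25a4 differed by 1.39 at 5 °C and 1.67 at 30 °C and Slc25a5 by 1.33 and 1.50. Slc25a3 differed by 0.87 and 0.49, which became -0.02 and -0.35 (adjusted p = 0.00216) with library totals. At 5 °C without WAT_5C replicate 1, Slc25a4 had 1.87, Slc25a5 1.58 and Slc25a3 1.03. Slc25a23, Slc25a28 and Slc25a38 at 5 °C and Slc25a25, Slc25a28 and Slc25a38 at 30 °C also turned negative with library totals, so their direction depends on the scaling. Slc25a25 was higher in BAT_30C than in WAT_30C by 0.62 ± 0.27 (SE, adjusted p = 0.0498), and lower in BAT_5C than in WAT_5C with a log2 change of -0.88 ± 0.27 (SE, adjusted p = 0.00905), and -0.66 without WAT_5C replicate 1, with overlapping groups in both. The 30 °C difference did not pass without any one of the 4 WAT_30C libraries or BAT_30C replicates 2 to 4 (adjusted p up to 0.119).

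The citrate carrier did not pass between the fats when all libraries were used. Slc25a1 had a log2 change of 0.67 ± 0.29 (SE, adjusted p = 0.0543) at 5 °C, 0.99 ± 0.26 (SE, adjusted p = 0.00271) without WAT_5C replicate 1, and -0.02 ± 0.29 (SE, adjusted p = 0.945) at 30 °C. The dicarboxylate carrier favoured white fat. Slc25a10 (chr11:120491840-120499187, plus strand) counted 72.5, 37.2, 67.9 and 35.8 CPM in BAT_5C, against 571, 202, 203 and 320 CPM in WAT_5C, a log2 change of -2.60 ± 0.38 (SE, adjusted p = 1.96e-05), and -2.19 without WAT_5C replicate 1. At 30 °C it counted 85.9, 40.6, 40.8 and 39.1 CPM in BAT_30C, against 109, 146, 149 and 121 CPM in WAT_30C, a log2 change of -1.34 ± 0.36 (SE, adjusted p = 0.00381). Each white fat library was above each brown fat one at either temperature, and 5.19% of its stretches are shared with the antisense gene Gm11788.

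Both aspartate/glutamate carriers were lower in brown fat. Slc25a12, with the counts given above, had log2 fold changes of -1.27 ± 0.27 (SE, adjusted p = 0.000675) at 5 °C and -1.74 ± 0.27 (SE, adjusted p = 4.78e-05) at 30 °C. For Slc25a13 they were -2.64 ± 0.37 (SE, adjusted p = 1.42e-05) and -2.40 ± 0.36 (SE, adjusted p = 2.99e-05). Without WAT_5C replicate 1 the 5 °C values were -1.33 and -2.93. Slc25a37 differed by -1.28 at 5 °C and -1.02 at 30 °C. Slc25a24, an ATP-Mg/phosphate carrier, counted 12.0, 21.6, 23.7 and 21.3 CPM in WAT_5C, against 22.8, 20.6, 20.2 and 26.6 CPM in WAT_30C and differed by -1.26 and -1.45. Slc25a45 counted 8.40, 8.15, 9.07 and 7.17 CPM in BAT_5C, against 15.8, 22.4, 22.7 and 21.0 CPM in WAT_5C, and at 30 °C 7.62, 6.21, 8.42 and 7.0 CPM in BAT_30C, against 24.8, 22.9, 24.6 and 21.7 CPM in WAT_30C. Each brown fat library was below each white fat one of the same temperature, with -1.32 and -1.69. Slc25a53 counted 3.85, 4.50, 4.71 and 3.95 CPM in BAT_5C, against 7.43, 10.2, 8.48 and 7.49 CPM in WAT_5C, and at 30 °C 4.94, 4.57, 5.57 and 4.46 CPM in BAT_30C, against 10.5, 9.58, 10.5 and 9.67 CPM in WAT_30C. It differed by -0.98 and -1.04. At 5 °C without WAT_5C replicate 1, Slc25a37 had -1.43, Slc25a24 -1.46, Slc25a45 -1.45 and Slc25a53 -1.05.

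Markers of other cells moved with these. All 14 mammary epithelium markers and all 12 T and NK cell markers were lower in BAT at both temperatures. Mammary markers summed to 9.34 to 71.9 CPM in BAT_5C and 82.7 to 1606 CPM in WAT_5C, and at 30 °C to 8.15 to 34.0 CPM in BAT_30C against 1004 to 1645 CPM in WAT_30C. T and NK markers summed to 3.16 to 8.01 CPM in BAT_5C and 144 to 651 CPM in WAT_5C, and at 30 °C to 10.4 to 15.2 CPM in BAT_30C against 704 to 993 CPM in WAT_30C. In WAT_5C replicate 1, the WAT library with the least of both, Slc25a13 counted 1.17 CPM against 3.41 to 3.95 CPM in the other WAT_5C libraries. Of the 12 carriers lower in BAT_5C than in WAT_5C, that library was the lowest of WAT_5C for 9, among them Slc25a24 (12.0 CPM), Slc25a27 (3.94 CPM) and Slc25a37 (42.3 CPM). It was the highest for the other 3, Slc25a10 (571 CPM), Slc25a21 (0.256 CPM) and Slc25a25 (32.5 CPM), and the part of these cells was not tested. These ranks were not counted over all genes, so 9 of 12 cannot be read as particular to carriers. All 10 macrophage markers and 9 of 10 fibroblast and preadipocyte markers were also lower in BAT at both temperatures. Endothelial markers were higher in 8 of 10 cases at 5 °C and 9 of 10 at 30 °C. No mammary, T or NK marker was at 0 throughout a group.

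**Figure D4:**
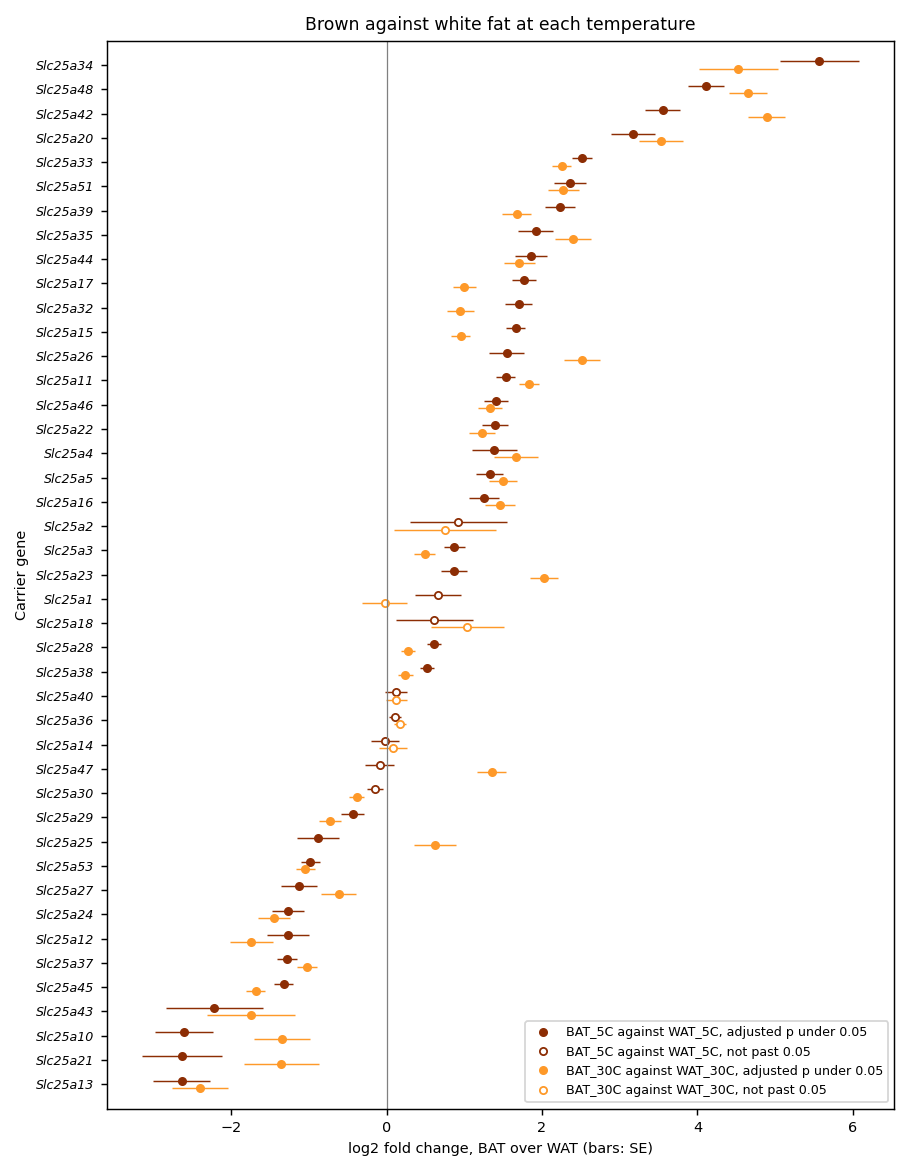
Each row is a carrier, and the horizontal axis is the log2 fold change of BAT over WAT with its SE, brown for 5 °C and orange for 30 °C, filled where the adjusted p was under 0.05. Slc25a34, Slc25a48, Slc25a42 and Slc25a20 lie farthest to the BAT side, and Slc25a13 farthest to the WAT side at both temperatures. At 5 °C Slc25a21 and Slc25a10 are nearly level with it, followed by Slc25a43. At 5 °C Slc25a13 in BAT and Slc25a21 in both fats are at very low CPM.

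Shares within pairs of close relatives were compared by exact two-sided permutation tests over libraries, 8 in all, where 4 against 4 allows no p below 0.0286. Slc25a4 made up 40.5 ± 2.32% of the counts of Slc25a4 and Slc25a5 in BAT_5C and 47.6 ± 0.958% in BAT_30C (SD, n = 4 each, exact p = 0.0286, 0.0762 after Benjamini-Hochberg adjustment over the 8). Slc25a37 made up 37.4 ± 3.63% of the mitoferrin counts in BAT_5C and 48.6 ± 2.79% in BAT_30C, with the same exact p. Slc25a33 made up 26.9 ± 0.661% of the pyrimidine carrier counts (Slc25a33 and Slc25a36) in BAT_5C and 18.2 ± 2.91% in BAT_30C, again with the same exact p. In these 3 pairs the groups did not overlap, in BAT, but no test passed 0.05 after adjustment. Besides the shared stretches of Slc25a5 and Slc25a33 given above, 6.99% of those of Slc25a37 and 6.7% of those of Slc25a36 occur in other annotated transcripts. Skeletal muscle marker RNA differed between BAT libraries, and its part in the Slc25a4 share was not tested.

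Slc25a12 held 94.7 ± 2.24% of the aspartate/glutamate carrier counts in BAT_5C and 93.2 ± 3.62% in BAT_30C, overlapping groups (exact p = 0.543). In WAT the exact p was 0.143 for Slc25a4, 0.486 for Slc25a12, 0.971 for Slc25a37 and 0.0571 for Slc25a33. The Slc25a37 share, 68.4 ± 7.90% in WAT_5C and 69.9 ± 1.88% in WAT_30C, was higher in white than in brown fat in every library, with 56.7% in WAT_5C replicate 1 as the lowest white fat value and 52.6% as the highest brown fat value.

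**Figure D5:**
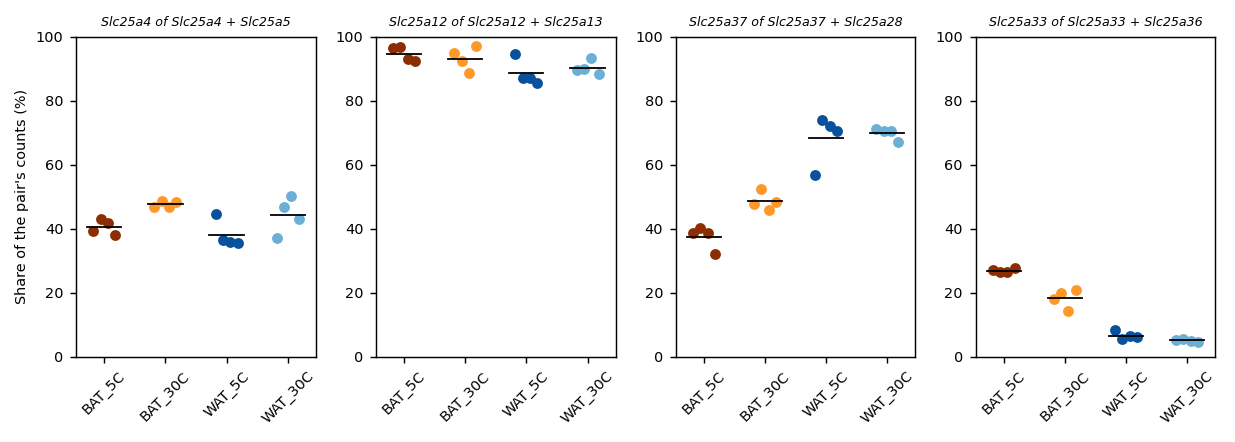
Each panel is a pair of related carriers, the vertical axis is the percent of the pair's summed counts from the first gene, points are libraries and lines group means. The shares of Slc25a4 and Slc25a37 are lower and that of Slc25a33 higher in each BAT_5C library than in any BAT_30C library, and Slc25a12 stays above 85% throughout.

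Genes around the carriers were read from lists. Family members with other names rose in cold brown fat except Ucp2, with 4 of 5 higher and 1 lower (3 and 1 with library totals), beside the shares of all genes given for that comparison. Ucp1, the proton leak of brown fat, averaged 13047 ± 624 CPM in BAT_5C and 1326 ± 731 CPM in BAT_30C, a log2 fold change of 3.30, beside 3.39 for Slc25a34. In WAT_5C Ucp1 averaged 150 ± 173 CPM and in WAT_30C 0.179 ± 0.102 CPM, with an adjusted p of 0.0639, and 0.0208 without WAT_5C replicate 1. Mtch2, an outer membrane insertase, had a log2 fold change of 1.31 and Mtch1 of 0.49 in BAT, Ucp3 of 1.30 and Ucp2 of -0.92.

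The import route that places carriers in the inner membrane, the TIM22 pathway, had 10 of 13 members higher and 1 lower in BAT_5C, with a median log2 fold change of 0.59 (7 and 3 with library totals). Beside these counts and those of the lists below, 29.2% of all genes in BAT were higher and 30.3% lower (14.3% and 54.5% with library totals). Timm8b and Timm8a1, chaperones between the membranes, had 1.31 and 0.89, Timm22, the channel subunit, 1.04 and Timm10, another chaperone, 0.59, while the kinase Agk had -0.16. Of other mitochondrial transporters 17 of 24 tested were higher and 2 lower (14 and 8 with library totals), led by the pyruvate carrier subunits Mpc2 at 2.43 and Mpc1 at 2.52, Letm1 at 2.77 and Sfxn5 at 2.24. Nuclear-encoded subunits of oxidative phosphorylation had 31 of 34 higher and 1 lower (18 and 5 with library totals), with a median of 0.57. Complex III subunits Uqcrc2 and Uqcrfs1 had 1.16 and 1.06, and Atp5g1, an ATP synthase subunit, fell by 0.88.

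Enzymes that work with the citrate, malate and aspartate carriers were higher in 10 of 12 cases and lower in 1 in BAT_5C (7 and 2 with library totals). Besides Acly and Me1 these included the cytosolic malate dehydrogenase Mdh1 at 1.06 and the glycerol phosphate shuttle enzyme Gpd2 at 1.99, and the mitochondrial isocitrate dehydrogenase Idh2 fell by 0.64. Genes of the carnitine route were higher in 3 of 7 cases and lower in 1 (2 and 1 with library totals). The rises were Cpt2 (2.00), Crat (1.09) and Crot (0.42) and the fall was Cpt1c (-0.62). For both lists, 29.2% of all genes were higher and 30.3% lower, and with library totals 14.3% and 54.5%. In WAT none of these 6 lists had a member past the threshold by edgeR with all libraries. Among all genes 0.0632% were then higher and 0% lower. With library totals 2 family members, 2 other transporters and 2 citrate and malate enzymes were higher. With that scaling 73 of all 18975 genes were higher and 9 lower. Without WAT_5C replicate 1, 1.84% of all genes were higher and 0.274% lower. In that fit 3 of 5 family members, 6 of 12 citrate and malate enzymes and 4 of 24 other transporters were higher. For carnitine route genes it was 1 of 7, for TIM22 members 0 of 13 and for oxidative phosphorylation subunits 0 of 34, and no list had a lower member.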

How the data were processed

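Raw read counts per gene, which the authors deposited as one table for 16 libraries, were used as they stood. Reads were trimmed with Trim Galore and aligned with TopHat, per the submitters' processing notes. Which counting program, strand setting, build and annotation were used is not given in the sources used here. Identifiers were named from a mouse gene table (935 of 46078 had no name), and all entered the tests. One member counted in the totals is not reported here by name. Members and lists were chosen with earlier results of these data known.

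The deposited counts were analysed with edgeR 4.0.16 in R 4.3.3 (limma 3.58.1, DESeq2 1.42.0 for alternatives). Low genes were removed by filterByExpr (at least 10 counts, total of at least 15), libraries were scaled by TMM, and the quasi-likelihood test was used with Benjamini-Hochberg adjustment at 0.05. BAT and WAT cold changes were fitted within each tissue, and depot differences and the difference of cold changes in one fit of all 16 libraries. CPM values share one TMM scale. Shares were tested by exact permutation with SciPy 1.17.1 (Python 3.11.15), and figures drawn with matplotlib 3.10.9. Totals of 54264023 to 71289020 counts make counting error small for abundant carriers. The edgeR fit with TMM was tested on simulated counts in which genes changed only in BAT_5C. A cold change in WAT was not simulated, and DESeq2, limma-voom and the replicate block were not tested that way.

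Per-library values were given for 19 carriers picked by known role and for up to 5 rises and 5 falls per comparison with separate groups and at least 5 CPM. Up to 4 genes per list were named by smallest adjusted p, and lists of 5 or fewer whole. Agk, Idh2, Atp5g1, Ebf2, Lhx8 and Adipoq were named after their values were seen, as list members that fell. Groups share replicate numbers, but deviations of same-numbered libraries correlated by only -0.238 to 0.287 at one temperature across tissues and -0.456 to 0.161 between temperatures, so no pairing was used. No pair of libraries in a group agreed within counting noise (chi-square per degree of freedom 21.4 to 851 in 24 pairs). Alternatives were other scalings, no filter, DESeq2, limma-voom, a threshold of 0.01, a replicate block, all libraries in one fit, BAT libraries with matching labels, and each library left out. Gene coordinates and shared 50-base stretches come from an annotation on GRCm38, which may differ from the one used for counting.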

Additional observations from a re-analysis of the deposited data

Results flagged for a closer look

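In 13 of 112 carrier and group values, one library lay far from the other 3, by Dixon's test at the 95% level, which chance passes in about 1 in 20 groups. In BAT_5C these were replicate 2, low for Slc25a23 (159 CPM), Slc25a44 (233 CPM) and Slc25a48 (54.1 CPM), replicate 1, high for Slc25a25 (19.8 CPM), and replicate 4, high for Slc25a28 (44.8 CPM). In BAT_30C replicate 1 was high for Slc25a10 (85.9 CPM) and replicate 2 low for Slc25a15 (19.7 CPM). In WAT_5C replicate 1 was high for Slc25a4 (364 CPM) and Slc25a44 (123 CPM). In WAT_30C replicate 3 was high for Slc25a1 (294 CPM) and Slc25a12 (44.4 CPM), and replicate 4 for Slc25a17 (42.2 CPM) and Slc25a44 (53.8 CPM).

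The cold change differed between the fats for 8 of 44 carriers by the edgeR test of that difference, 3 higher and 5 lower in BAT. Among all genes 8.34% were higher and 12.5% lower, so the count is not particular to carriers. With the BAT libraries whose labels all match, 0 carriers were higher and 2 lower, where 3.99% and 4.31% of all genes were. Slc25a26 and Slc25a32 each lost the call in 11 of the fits with one library left out. BAT minus WAT was 0.71 for Slc25a15, 0.76 for Slc25a17 and 0.75 for Slc25a32 on the log2 scale. It was -1.16 for Slc25a23, -1.50 for Slc25a25, -0.97 for Slc25a26, -1.34 for Slc25a42 and -1.44 for Slc25a47.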

How the results depend on the processing

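The log2 fold changes of the 19 carriers picked by known role, and of others called in a comparison, were followed under all alternatives. Of these values, 2438 kept direction and side of the threshold, 103 lost the call, 63 gained it and 42 reversed. Other carriers were not followed, so calls gained among them are not in the tally. The causes were not tested. With library totals 15 carriers were lower in BAT_5C against BAT_30C, 3 higher in WAT_5C against WAT_30C, and 19 lower in BAT than WAT at 5 °C and 19 at 30 °C. Of all genes, 54.5% were then lower in BAT cold, and 71.3% (5 °C) and 66.1% (30 °C) lower in BAT than WAT. In WAT cold 73 of 18975 genes were higher. Among the carriers followed, reversals with library totals were, for BAT cold, Slc25a4 (-0.31), Slc25a10 (-0.35), Slc25a11 (-0.28), Slc25a28 (-0.16), Slc25a30 (-0.10) and Slc25a38 (-0.13). For WAT cold it was Slc25a4 (-0.042). At 5 °C between fats they were Slc25a1 (-0.19), Slc25a3 (-0.023), Slc25a23 (-0.0062), Slc25a28 (-0.30) and Slc25a38 (-0.40), and at 30 °C Slc25a3 (-0.35), Slc25a25 (-0.24), Slc25a28 (-0.57) and Slc25a38 (-0.60).

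Carriers higher in WAT_5C numbered 0 with RLE size factors, 11 with DESeq2, 18 with limma-voom (2 lower), 0 at 0.01, 16 with all libraries in one fit and 0 to 7 with one library left out. All genes called in WAT were 12, against 82 with library totals, 25 with no filter, 1119 with DESeq2, 2268 with limma-voom, 0 at 0.01, 1587 with all libraries in one fit and 0 to 408 with one library left out. In BAT 9647 genes were called, and 6058 with matching labels.

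For the difference of cold changes, carriers higher numbered 6 with DESeq2, 9 with limma-voom, 1 at 0.01, 0 with matching labels and 2 to 10 with one library left out, and carriers lower 8 with limma-voom, 3 at 0.01 and 2 with matching labels. All genes called were 4055, against 6797 with limma-voom, 2109 at 0.01, 1695 with matching labels and 6222 without WAT_5C replicate 1.

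Slc25a10 in BAT was -0.29 with matching labels and -0.14 to 0.43 with one library left out, and Slc25a12 -0.35 to 0.17. In WAT, limma-voom gave -0.12 for Slc25a4 and 0.070 for Slc25a13, and with one library left out they ranged from -0.18 to 0.49 and from -0.33 to 0.081, Slc25a4 negative and Slc25a13 positive without WAT_5C replicate 1. Slc25a1 at 30 °C between fats ranged from -0.17 to 0.22, positive without BAT_30C replicate 2 or 4 or WAT_30C replicate 3. The difference of cold changes was 0.14 and 0.026 for Slc25a4 and Slc25a5 with limma-voom and 0.080 for Slc25a13 with matching labels. With one library left out it ranged from -0.46 to 0.26 for Slc25a4, -0.31 to 0.15 for Slc25a5 and -0.59 to 0.019 for Slc25a20, positive without WAT_5C replicate 1, and from -0.061 to 0.39 for Slc25a51, negative without BAT_30C replicate 1 or WAT_5C replicate 2.

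Without one library the share differences in BAT ranged from -7.95 to -6.22 percentage points for Slc25a4, -12.2 to -9.47 for Slc25a37 and 7.29 to 9.52 for Slc25a33, where 3 against 4 allows no exact p below 0.0571. The Slc25a12 share difference ranged from -0.033 (without BAT_30C replicate 3) to 2.78, and the WAT Slc25a37 one from -3.45 to 2.35 (without WAT_5C replicate 1).

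With the replicate block, carriers higher and lower numbered 19 and 5 in BAT, 0 and 0 in WAT, 25 and 12 between fats at 5 °C, 26 and 11 at 30 °C, and 3 and 4 for the difference of cold changes. All genes higher and lower in that fit numbered 4524 and 4567 of 16213 in BAT and 0 and 0 in WAT. Of 19481 genes they numbered 6165 and 7646 at 5 °C, 6507 and 6732 at 30 °C, and 1395 and 1989 for the difference. Counts of lists under library totals and without WAT_5C replicate 1 were chosen after seeing the data.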
